A study of Homo sapiens with 15 samples.

Results

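A run of 30 neighbouring genes on chromosome 20, from CST7 on the short arm (20p11) to MAPRE1 on the long arm (20q11.21), was followed through 5 groups of TF-1 cells. The block was chosen by its position and by its RNA levels in these same libraries, namely the log2 differences of IDH1R132H and IDH2R140Q from Parental. Of the 30 named genes 20 were measured, reaching 1 TPM in at least 3 libraries, out of 14881 genes that did so. In hg38 with GENCODE release 29 the block runs from 24949230 to 32850405 on chromosome 20. It is split by the centromere: the widest distance between neighbouring named genes, 5.78 Mb, lies between ZNF337, which ends at 25696841, and REM1, which starts at 31475293, and the next widest is 0.118 Mb. Before it lie 11 named genes, 7 of them measured, and after it 19, of which 13 were measured.

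TF-1 is a human erythroleukaemia cell line that depends on cytokines such as GM-CSF. Base-edited lines with a mutation in IDH1 (IDH1R132H) or IDH2 (IDH2R140Q, IDH2R140W, IDH2R172K), the enzymes that make 2-oxoglutarate in the cytosol and the mitochondria, were compared with Parental cells. Each of the 5 groups had 3 libraries. Parental cells grew with 2 ng/ml GM-CSF and all edited lines grew without it (0 ng/ml), so genotype and medium cannot be told apart against Parental; medium was the same in all 4 edited lines. The labels do not say whether an edited line is a single clone, nor whether libraries of a group are separate cultures. The p-values below therefore rest on the spread among these libraries, and that spread may be technical.

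Genes of the block share a place on the chromosome, not a pathway. The level of an mRNA usually follows the number of gene copies in part, so neighbours of unrelated function that shift together are commonly read as a sign of a gained or lost segment, and gain of 20q11.21 is known from cultured human pluripotent stem cells. ASXL1 on the long arm is a chromatin regulator often mutated in myeloid leukaemia, and TPX2 and MAPRE1 serve the mitotic spindle. DNA copy number was not measured here: all values are RNA levels, and in bulk RNA fewer cells of a kind and less RNA per cell cannot be told apart.

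The long-arm members carried the lower values, and they did so in pieces. HM13 and TPX2 were lower than Parental without overlap in IDH1R132H, IDH2R140Q and IDH2R172K, but in IDH2R140W TPX2 alone of the pair was lower. The 9 measured members from PDRG1 to MAPRE1 were lowest in IDH2R140W in every case, at 0.294 (PLAGL2) to 0.753 (COMMD7) of the Parental mean. The short-arm members had no common direction: PYGB was higher than Parental in all 4 edited lines, GINS1 lower in 3 of them, and CST7 4.36-fold higher in IDH2R140W but at 0.366 of Parental in IDH1R132H. The division of the long arm at PDRG1 was chosen after the values were seen.

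Differences below were taken on log2(TPM + 1), a scale that shrinks changes of weakly expressed genes, and are given less the difference of the median gene where this is said. For the median of all 14881 genes the difference was 0.16 in IDH1R132H, 0.23 in IDH2R140Q, 0.13 in IDH2R172K and 0.034 in IDH2R140W. Comparisons of members with Parental carry no test, because IDH1R132H and IDH2R140Q against Parental chose the members and IDH2R140W and IDH2R172K share the Parental libraries with them. IDH2R140W against IDH2R172K shares no library with the choice and was tested.

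**Figure D1:**
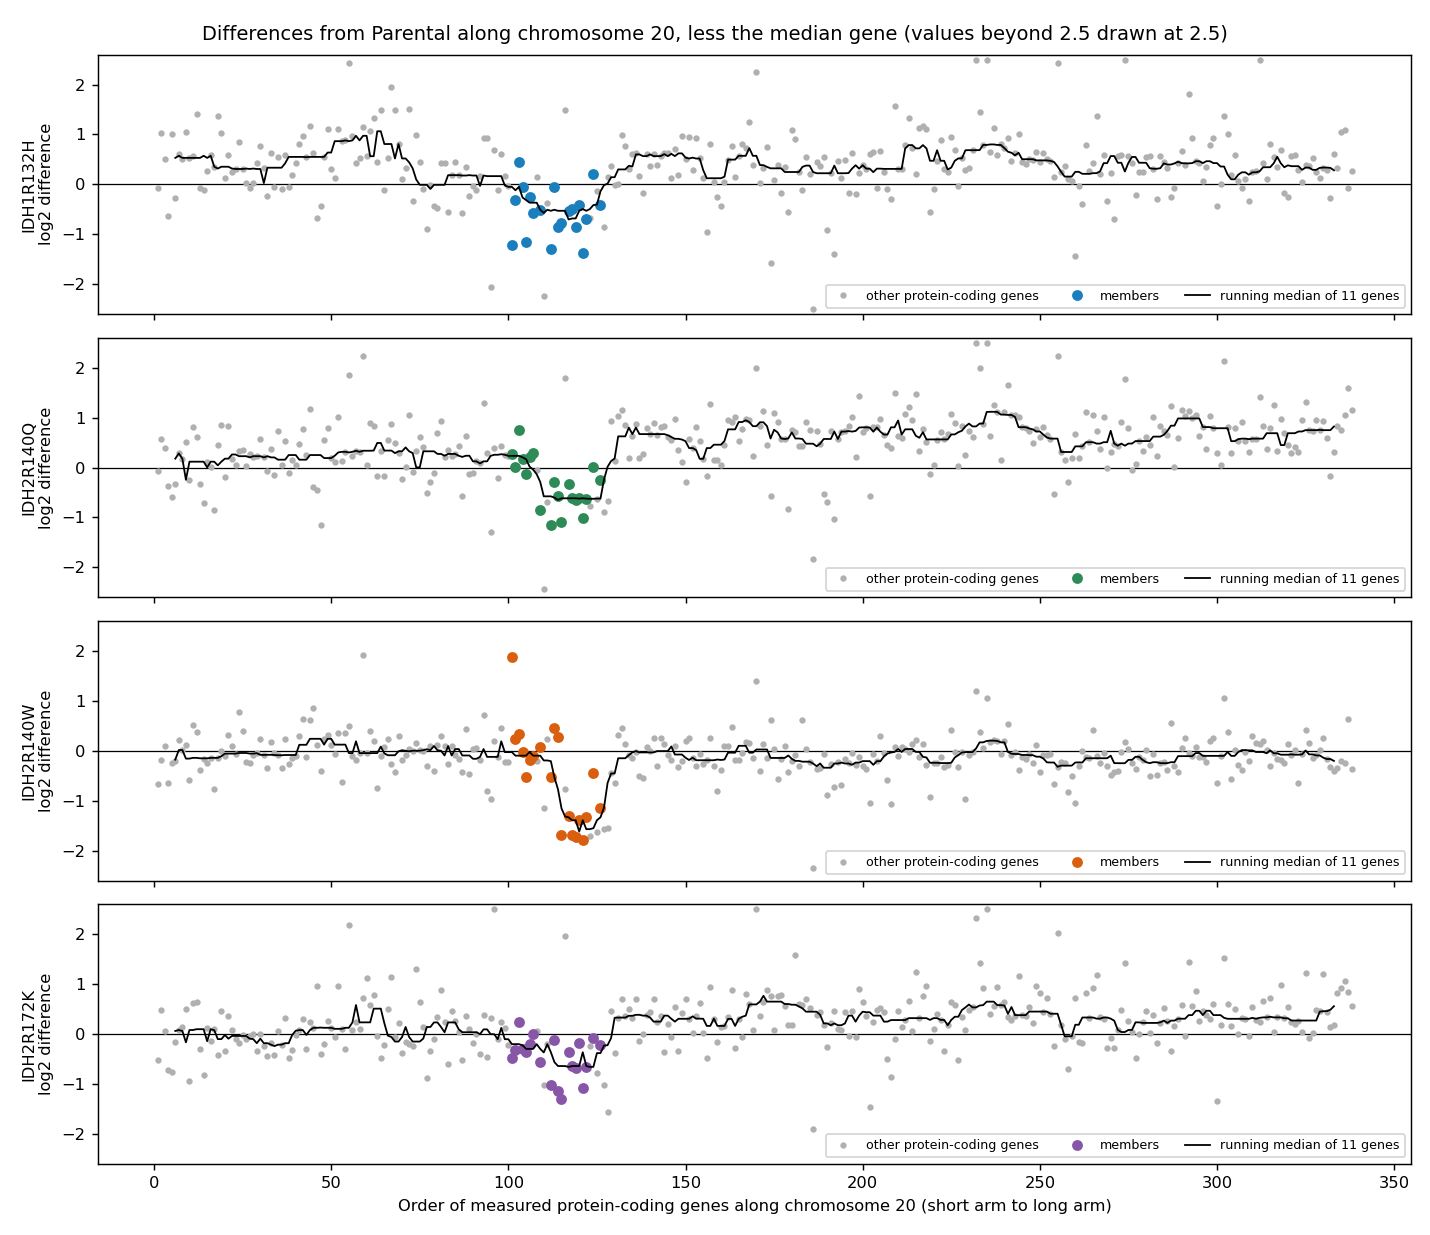
Each point is a measured protein-coding gene of chromosome 20 in chromosome order (x axis, rank), with its log2 difference from Parental less the median gene (y axis), in 1 panel per edited line; coloured points are members and the black line is a running median of 11 genes. The running median dips at the long-arm members in each panel, with a median of -1.39 over PDRG1 to MAPRE1 in IDH2R140W against -0.53, -0.62 and -0.64 in IDH1R132H, IDH2R140Q and IDH2R172K.

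Promoter sequences were described for the measured members. RefSeq (GRCh38.p14) gave a window of 300 bases, from 250 before to 50 after the start as RefSeq places it, for 16 of the 20 measured members; CST7, HM13, TPX2 and MYLK2 had no entry in the table used. The windows were rich in G+C, with a median of 70.0% (54.3% to 80.7%) against 58.3% over all 27305 promoter windows, and held a median of 30.5 CpG pairs against 14.0. The letters GGGCGG (SP1 type, both strands) were found in 13 of 16 windows (81.2%), against 44.6% of all windows, and CCGGAAG (ETS type) in 4 of 16 (25.0%), against 10.7%. The letters CCAAT (NFY type) stood in 5 windows (31.2%, against 35.7% of all) and the E-box CACGTG in 2 (12.5%, against 7.43%). The GATA-type letters AGATAA were in 1 window (6.25%, against 10.5%), as was part of the NRF1-type motif, GCGCATG (against 4.67%). The TATA letters TATAAA were also in 1 window (against 12.0%). Both strands were searched in each case. A match of letters is a description, not a binding site. The 16 windows all belong to measured genes, whereas the 27305 include genes not measured here, so the shares compare unlike sets. The part of this in the differences was not tested.

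The 250 bases before the start are shown for MAPRE1, among the most abundant members, and for ASXL1 and PYGB, the members with the lowest and the highest difference from Parental in IDH1R132H among those of at least 10 TPM. All are read 5′ to 3′ on the gene's strand (+), with matches to the searched letters, on either strand, in capitals. In MAPRE1 the last 3 GGGCGG matches overlap.
MAPRE1 (chr20:32819704-32819953): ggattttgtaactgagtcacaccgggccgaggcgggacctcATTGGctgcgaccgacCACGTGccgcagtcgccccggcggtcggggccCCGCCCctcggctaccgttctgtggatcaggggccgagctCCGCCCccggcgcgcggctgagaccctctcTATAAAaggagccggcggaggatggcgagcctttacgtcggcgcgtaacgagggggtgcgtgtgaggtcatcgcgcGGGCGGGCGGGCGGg
ASXL1 (chr20:32358081-32358330): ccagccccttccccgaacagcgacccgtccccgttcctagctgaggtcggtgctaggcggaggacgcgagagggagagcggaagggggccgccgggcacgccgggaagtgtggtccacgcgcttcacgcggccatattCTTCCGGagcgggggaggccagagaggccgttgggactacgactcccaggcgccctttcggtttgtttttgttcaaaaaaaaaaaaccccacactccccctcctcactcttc
PYGB (chr20:25247835-25248084): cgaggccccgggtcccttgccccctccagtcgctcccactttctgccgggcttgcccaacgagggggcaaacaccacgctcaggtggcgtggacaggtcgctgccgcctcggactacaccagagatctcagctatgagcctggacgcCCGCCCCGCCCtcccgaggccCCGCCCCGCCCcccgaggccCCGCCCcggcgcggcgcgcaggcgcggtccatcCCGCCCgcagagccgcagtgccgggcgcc
MAPRE1 held 8 matches, 5 of them GGGCGG, and the only TATAAA among the 16 member windows, 91 bases before the RefSeq start. ASXL1 held 1 match, CCGGAAG on the minus strand, near the middle of the stretch shown. PYGB held 6 matches, all GGGCGG, the nearest of them 29 bases before the RefSeq start. The GENCODE starts of MAPRE1 (32819893) and PYGB (25248069) lie inside the stretches shown, so distances from those starts are different.

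PLAGL2 and POFUT1 stand head to head, and their RefSeq starts are 136 bases apart. This stretch was chosen after the values were seen, since both genes stood at closely similar fractions of Parental in IDH2R140W, IDH2R140Q and IDH2R172K, though not in IDH1R132H (below), and it is printed on the plus strand with GGGCGG matches in capitals, of which there are 6, beside 25 CpG pairs.
PLAGL2 to POFUT1 (chr20:32207744-32207879): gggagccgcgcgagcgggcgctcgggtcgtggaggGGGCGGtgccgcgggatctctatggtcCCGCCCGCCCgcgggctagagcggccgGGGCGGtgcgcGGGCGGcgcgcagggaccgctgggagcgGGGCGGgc

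Libraries were alike within groups, with Pearson's r across genes, which are not independent, of 0.974 to 0.99, and between 12796 and 13792 symbols reached 1 TPM in a library. TPM keeps no read number, so library depth is not known and intervals for counting error cannot be computed. The share of TPM held by 73 ribosomal protein genes was 20.8% in Parental replicate 2, against 16.6% and 17.6% in the other Parental libraries, and 21.7% in IDH2R140W replicate 3, against 18.0% and 18.3%; in the other 3 lines they held 13.6% to 15.2%. Of 9 genes that mark TF-1, 6 were present in every library, among them CD34 (118 to 544 TPM) and KLF1 (67.1 to 144 TPM). GATA1, CSF2RA and IL3RA are listed at 0 in all 15, and whether they were silent or not quantified cannot be told from these values. Summed over the 9, zeros included, the TF-1 markers came to 568 to 639 TPM in Parental, 982 to 989 in IDH1R132H, 921 to 924 in IDH2R140Q, 1068 to 1098 in IDH2R172K and 686 to 737 in IDH2R140W. Of 5 genes listed as markers of other cells, CD3E, COL1A1 and EPCAM stayed at or under 1 TPM. PECAM1 lay between 31.9 and 149 TPM, and ALB reached 20.4 TPM, with a mean of 16.6 in IDH2R140W. The 5 summed to 47.9 to 128 TPM in Parental, 128 to 149.6 in IDH1R132H, 97.8 to 108 in IDH2R140Q, 85.4 to 112.3 in IDH2R172K and 52.4 to 90.6 in IDH2R140W. The part of these markers and of the ribosomal share in the values below was not tested.

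Members with a mean of at least 10 TPM, 15 of the 20, are given library by library, always in the order replicate 1, 2 and 3. Levels are in TPM, which is per transcript length, so they can be set side by side between genes.

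Of the genes of cell division and DNA replication, TPX2, MAPRE1, GINS1 and KIF3B were measured. TPX2, a spindle assembly factor that activates the kinase Aurora A (TPX2, 31739271 to 31801805), stood at 421, 345 and 415 TPM in Parental, 176, 182 and 177 in IDH1R132H, 208, 196 and 216 in IDH2R140Q, 209.6, 209.7 and 215 in IDH2R172K and 298, 290.5 and 247 in IDH2R140W. All 12 edited libraries lay below all 3 Parental libraries, with IDH2R140W between Parental and the other lines. The mean was 0.453 of Parental in IDH1R132H, 0.524 in IDH2R140Q, 0.537 in IDH2R172K and 0.707 in IDH2R140W. In Parental cells TPX2 was more abundant than 97.4% of the genes tested and MAPRE1 than 96.8%.

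MAPRE1 encodes EB1, which binds the growing ends of microtubules (MAPRE1, 32819893 to 32850405), and stood at 348, 303 and 344 TPM in Parental, 267, 292 and 279.8 in IDH1R132H, 334, 313 and 338 in IDH2R140Q, 319, 312 and 302 in IDH2R172K and 162, 156 and 144 in IDH2R140W. The 3 IDH2R140W libraries were the lowest of the 15, at 0.464 of the Parental mean. IDH1R132H also lay below Parental without overlap, at 0.842, whereas IDH2R140Q and IDH2R172K overlapped with Parental. GINS1, a subunit of the GINS complex of the replicative helicase (GINS1, 25407727 to 25452628), stood at 23.3, 22.7 and 23.6 TPM in Parental, 12.1, 11.8 and 9.70 in IDH1R132H, 24.7, 24.9 and 25.0 in IDH2R140Q, 17.7, 21.2 and 19.97 in IDH2R172K and 16.0, 17.5 and 15.3 in IDH2R140W. It was lowest in IDH1R132H, at 0.482 of Parental, and below Parental without overlap in IDH2R140W and IDH2R172K too. KIF3B, a motor subunit of kinesin-2 (KIF3B, 32277664 to 32335011), stood at 25.2, 16.6 and 23.8 TPM in Parental, 18.0, 17.7 and 18.0 in IDH1R132H, 16.3, 15.4 and 16.9 in IDH2R140Q, 20.9, 20.9 and 20.9 in IDH2R172K and 8.37, 9.08 and 6.20 in IDH2R140W. Only the IDH2R140W libraries lay clear of Parental, at 0.360 of its mean, since Parental replicate 2 was lower than all libraries of IDH1R132H and IDH2R172K. NINL, a centrosomal protein, never passed 0.980 TPM.

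Of the chromatin and transcription genes, ASXL1 was below Parental in every edited library. It encodes a partner of the BAP1 deubiquitinase of histone H2A (ASXL1, 32358330 to 32439319) and stood at 121, 112.2 and 107 TPM in Parental, 44.9, 54.5 and 45.5 in IDH1R132H, 69.1, 65.4 and 62.0 in IDH2R140Q, 58.9, 62.4 and 54.1 in IDH2R172K and 41.7, 34.1 and 24.8 in IDH2R140W. No edited library reached 70 TPM and no Parental library fell under 100 TPM, so the groups stood apart in all 4 lines. The mean was 0.296 of Parental in IDH2R140W, 0.426 in IDH1R132H, 0.516 in IDH2R172K and 0.578 in IDH2R140Q. C20orf112, now named NOL4L (C20orf112, 32443059 to 32585074), stood at 84.6, 72.7 and 73.6 TPM in Parental, 53.8, 53.1 and 50.5 in IDH1R132H, 60.4, 60.5 and 53.8 in IDH2R140Q, 46.9, 57.4 and 55.4 in IDH2R172K and 29.6, 36.7 and 26.4 in IDH2R140W. It too was below Parental in all 12 edited libraries, at 0.401 of Parental in IDH2R140W and 0.681 to 0.757 in the others.

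PLAGL2, a zinc finger transcription factor (PLAGL2, 32192503 to 32207791), stood at 47.9, 27.7 and 43.5 TPM in Parental, 30.1, 29.8 and 31.3 in IDH1R132H, 29.5, 28.2 and 31.0 in IDH2R140Q, 26.4, 27.3 and 26.9 in IDH2R172K and 12.7, 12.7 and 9.61 in IDH2R140W. The IDH2R140W libraries were the lowest 3 of the 15, and Parental replicate 2 lay below every library of IDH1R132H and IDH2R140Q. ZNF337, a zinc finger protein on the short arm (ZNF337, 25674215 to 25696841), was low, with a mean of 3.75 ± 0.860 TPM (SD, n = 3 libraries) in Parental, 2.55 ± 0.382 in IDH1R132H, 5.82 ± 0.862 in IDH2R140Q, 4.14 ± 0.312 in IDH2R172K and 3.58 ± 1.06 in IDH2R140W. Its IDH1R132H libraries all lay below Parental and its IDH2R140Q libraries all above it. The homeobox factor VSX1 and the forkhead factor FOXS1 were not measured, with highest values of 0.180 and 0.210 TPM.

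**Figure D2:**
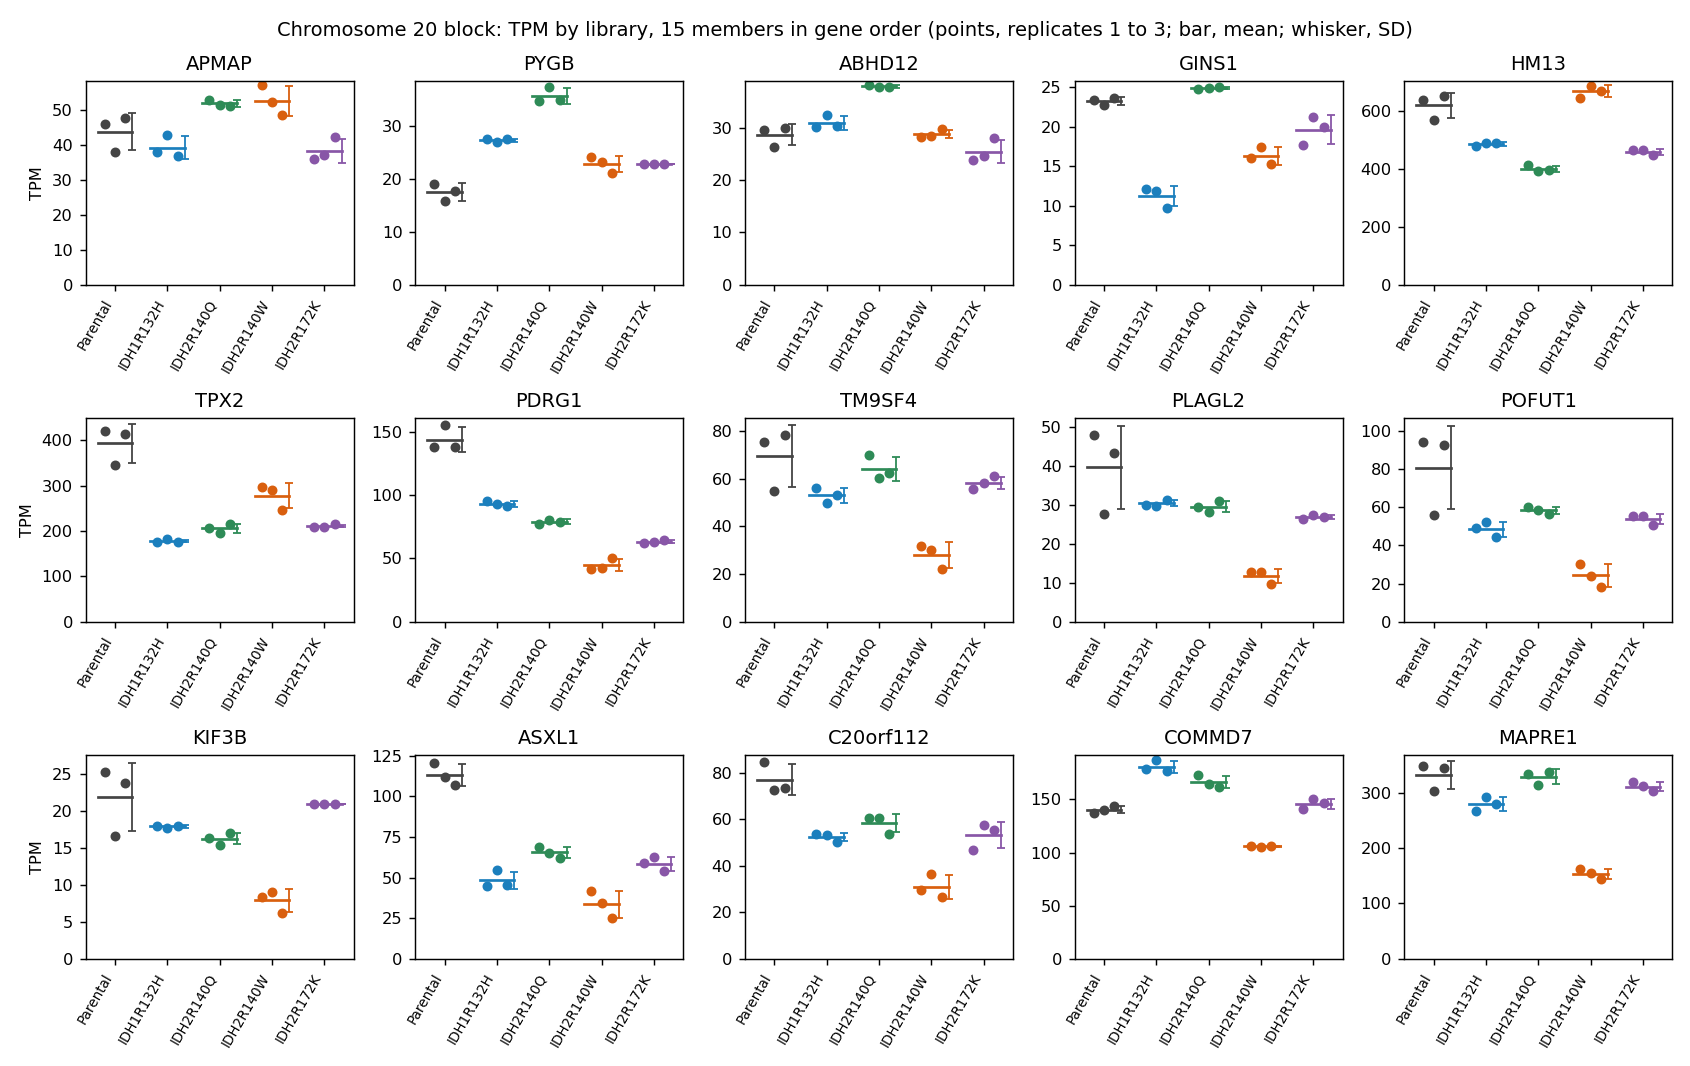
TPM (y axis, linear, from 0) of the 15 members with a mean of at least 10 TPM in each of the 5 groups (x axis), in gene order along chromosome 20; points are replicates 1 to 3, bars the mean and whiskers the SD. From PDRG1 to MAPRE1 the 3 IDH2R140W libraries are the lowest in each panel. The second Parental library lies below the other 2 in all panels but PDRG1, ASXL1 and COMMD7, by the widest fraction for TM9SF4, PLAGL2, POFUT1 and KIF3B.

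Among the metabolic enzymes PYGB, the brain form of glycogen phosphorylase, was higher in every edited library than in any Parental one. PYGB (PYGB, 25248069 to 25298014) stood at 19.1, 15.7 and 17.7 TPM in Parental, 27.4, 26.9 and 27.5 in IDH1R132H, 34.7, 37.4 and 34.9 in IDH2R140Q, 22.8, 22.7 and 22.8 in IDH2R172K and 24.1, 23.1 and 21.1 in IDH2R140W. Its mean was 2.04-fold that of Parental in IDH2R140Q, 1.56-fold in IDH1R132H and 1.30-fold in both other lines. ABHD12, a serine hydrolase that breaks down lysophosphatidylserine (ABHD12, 25294743 to 25390983), stood at 29.6, 26.4 and 30.1 TPM in Parental, 30.2, 32.6 and 30.4 in IDH1R132H, 38.3, 37.9 and 37.8 in IDH2R140Q, 23.9, 24.6 and 28.1 in IDH2R172K and 28.2, 28.6 and 29.8 in IDH2R140W. It was highest in IDH2R140Q, at 1.32-fold Parental. The annotated PYGB and ABHD12 genes overlap by 3272 bases on opposite strands. The strand setting of the counting is not given in the sources used here, so whether reads from that stretch were assigned by strand is not known.

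NANP, a phosphatase of sialic acid synthesis (NANP, 25612935 to 25624175), had a mean of 6.08 ± 1.04 TPM in Parental, 5.56 ± 0.331 in IDH1R132H, 8.53 ± 0.995 in IDH2R140Q, 5.74 ± 0.867 in IDH2R172K and 5.30 ± 0.121 in IDH2R140W. Only IDH2R140Q lay clear of Parental, and above it. The mitochondrial acetyl-CoA synthetase ACSS1, the nucleoside diphosphatase ENTPD6 and the cytochrome c oxidase isoform COX4I2 never passed 0.300, 0.170 and 0.430 TPM.

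Of the membrane and secretory genes, HM13 was the most abundant member, above 98.4% of the genes tested in Parental. It encodes signal peptide peptidase, an intramembrane protease of the endoplasmic reticulum (HM13, 31514410 to 31577923), and stood at 638, 571 and 653 TPM in Parental, 481, 490.1 and 489 in IDH1R132H, 414, 394 and 395 in IDH2R140Q, 465, 467 and 447 in IDH2R172K and 647, 689 and 670.4 in IDH2R140W. IDH2R140Q was lowest, at 0.646 of Parental, with IDH2R172K at 0.741 and IDH1R132H at 0.784, all without overlap. IDH2R140W overlapped with Parental, at 1.08 of its mean. POFUT1, the O-fucosyltransferase of Notch receptors (POFUT1, 32207880 to 32238667), stood at 94.0, 55.7 and 92.6 TPM in Parental, 49.0, 52.1 and 44.3 in IDH1R132H, 60.1, 58.7 and 56.5 in IDH2R140Q, 55.5, 55.3 and 50.5 in IDH2R172K and 30.4, 23.9 and 18.4 in IDH2R140W. Its IDH2R140W libraries were the lowest 3 of the 15, at 0.300 of the Parental mean, close to the 0.294 of its head-to-head neighbour PLAGL2. In IDH1R132H, IDH2R140Q and IDH2R172K POFUT1 was at 0.600, 0.724 and 0.666 of Parental and PLAGL2 at 0.767, 0.745 and 0.677.

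TM9SF4, a nonaspanin membrane protein (TM9SF4, 32109506 to 32167258), stood at 75.3, 54.8 and 78.5 TPM in Parental, 56.1, 49.6 and 53.3 in IDH1R132H, 70.0, 60.2 and 62.4 in IDH2R140Q, 55.9, 58.3 and 61.0 in IDH2R172K and 31.8, 30.2 and 22.0 in IDH2R140W. Again only IDH2R140W was clear of Parental, at 0.403. APMAP, the adipocyte plasma membrane-associated protein on the short arm (APMAP, 24962925 to 24992979), stood at 46.0, 38.0 and 47.7 TPM in Parental, 38.0, 43.0 and 36.8 in IDH1R132H, 53.1, 51.6 and 51.4 in IDH2R140Q, 35.9, 37.1 and 42.3 in IDH2R172K and 57.3, 52.4 and 48.7 in IDH2R140W. It was above Parental without overlap in IDH2R140Q and IDH2R140W, at 1.19-fold and 1.20-fold. CST7 encodes cystatin F, an inhibitor of lysosomal cysteine proteases, and is the first member of the block (CST7, 24949230 to 24959928). Its mean was 4.56 ± 0.953 TPM in Parental, 1.67 ± 0.230 in IDH1R132H, 6.81 ± 1.19 in IDH2R140Q, 3.37 ± 0.840 in IDH2R172K and 19.9 ± 1.68 in IDH2R140W. It had the widest spread between lines of any member, from 0.366 of Parental in IDH1R132H to 4.36-fold in IDH2R140W. XKR7, an XK-related protein, never passed 0.370 TPM.

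Among the genes of signalling and protein turnover, PDRG1, a prefoldin-like protein (PDRG1, 31944342 to 31952092), stood at 138, 155 and 138 TPM in Parental, 95.6, 92.7 and 91.1 in IDH1R132H, 76.8, 80.6 and 78.9 in IDH2R140Q, 62.0, 62.7 and 64.4 in IDH2R172K and 41.6, 42.7 and 50.3 in IDH2R140W. All 4 lines were clear of Parental and of each other, in the order IDH1R132H, IDH2R140Q, IDH2R172K and IDH2R140W from high to low. The means were 0.648, 0.548, 0.438 and 0.312 of Parental. COMMD7, a COMM domain protein (COMMD7, 32702691 to 32743997), was the exception among the 9 members from PDRG1 to MAPRE1, at 138, 140.2 and 144 TPM in Parental, 178, 187 and 177 in IDH1R132H, 173, 165 and 162 in IDH2R140Q, 141, 150.2 and 146 in IDH2R172K and 106, 105 and 106 in IDH2R140W. It was above Parental without overlap in IDH1R132H and IDH2R140Q, overlapped with it in IDH2R172K and lay below it only in IDH2R140W. Relative to the median gene its difference in IDH2R140Q was 0.015 and fell between -0.04 and 0.16 across the alternatives, so no direction is given for it on that scale.

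MYLK2, the skeletal muscle myosin light chain kinase (MYLK2, 31819308 to 31834689), and DUSP15, a dual-specificity phosphatase (DUSP15, 31847637 to 31870747), were near the limit of measurement. MYLK2 had a mean of 1.02 ± 0.0889 TPM in Parental, 1.19 ± 0.0306 in IDH1R132H, 0.960 ± 0.372 in IDH2R140Q, 1.05 ± 0.171 in IDH2R172K and 1.89 ± 0.614 in IDH2R140W, and reached 1 TPM in 11 of 15 libraries. Its IDH1R132H and IDH2R140W libraries lay above Parental without overlap, at 1.16-fold and 1.85-fold. DUSP15 had a mean of 4.04 ± 1.69 TPM in Parental, 2.02 ± 0.521 in IDH1R132H, 2.86 ± 0.748 in IDH2R140Q, 1.54 ± 1.06 in IDH2R172K and 5.05 ± 0.932 in IDH2R140W, with Parental between 2.44 and 5.80 TPM, and overlapped with Parental in all 4 lines. The other 18 measured members reached 1 TPM in all 15 libraries. REM1, TTLL9 and CCM2L, with highest values of 0.0800, 0.190 and 0.810 TPM, complete the 10 named members that were not measured, of which NINL came closest to the filter. The annotated ends of TTLL9 overlap DUSP15 by 46 bases and PDRG1 by 622 bases on opposite strands, and whether reads there were assigned by strand is not known.

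Set beside all genes, the members stood apart in their lower values more than in their higher ones, which the choice of members fixed for IDH1R132H and IDH2R140Q. In IDH1R132H 10 of 20 members lay below all Parental libraries (background 16.2% of all genes) and 4 above (background 36.2%). In IDH2R140Q 5 were below (background 13.5%) and 8 above (background 40.4%), and nothing is read from either. In IDH2R140W 11 were below (background 14.2%) and 4 above (background 17.3%), and in IDH2R172K 8 were below (background 16.0%) and 1, PYGB, above (background 31.9%). All 4 comparisons share the Parental libraries. Of the members below Parental, 7, 5, 10 and 7 lay on the long arm in IDH1R132H, IDH2R140Q, IDH2R140W and IDH2R172K. TPX2, PDRG1, ASXL1 and C20orf112 were among them in all 4 lines.

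Taken less the median gene, the median of the 20 members was -0.52 in IDH1R132H, -0.31 in IDH2R140Q, -0.37 in IDH2R172K and -0.48 in IDH2R140W. For the 7 short-arm members it was -0.32, 0.21, -0.30 and -0.026 in the same order, and for the 13 long-arm members -0.53, -0.62, -0.64 and -1.32. The 4 members from HM13 to DUSP15 had medians, in this order again, of -0.68, -0.72, -0.79 and 0.17, the last resting on HM13 (0.075) and DUSP15 (0.28), which both overlapped with Parental there. TPX2, at -0.53, was below Parental in IDH2R140W without overlap, and MYLK2 was at 0.46. The 9 members from PDRG1 to MAPRE1 had medians of -0.53, -0.62, -0.64 and -1.39, with 9 of 9 below the median gene in IDH2R140W and in IDH2R172K and 8 of 9 in IDH1R132H and IDH2R140Q, COMMD7 being the exception. COMMD7 lay close to the median gene in IDH2R172K (-0.079, and 0.0097 with any value above 0 as the filter). In IDH2R140Q it was at 0.015, and its side changed across the alternatives in both lines. Median differences over the genes of the other 22 chromosomes ranged from -0.12 to 0.16 in IDH1R132H, -0.39 to 0.21 in IDH2R140Q, -0.37 to 0.19 in IDH2R172K and -0.071 to 0.098 in IDH2R140W. Each of these medians is over 115 to 1200 protein-coding genes, many more than the 4 to 20 members. No stretch of like size elsewhere was compared.

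The same differences split by library are a description, not a separate check. IDH1R132H and IDH2R140Q chose the members, and the cut at PDRG1 was made after the values were seen. The Parental libraries lie near 0 because deviations were taken from their own mean. Over PDRG1 to MAPRE1 the median deviation from the Parental mean was -0.64 to -0.52 in the 3 IDH1R132H libraries, -0.63 to -0.56 in IDH2R140Q, -1.53 to -1.25 in IDH2R140W and -0.61 to -0.55 in IDH2R172K, against -0.017 to 0.061 in the Parental libraries themselves. Over HM13 to DUSP15 it was -0.76 to -0.56, -0.86 to -0.62, 0.047 to 0.26 and -0.81 to -0.51, against -0.046 to 0.088 in Parental.

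**Figure D3:**
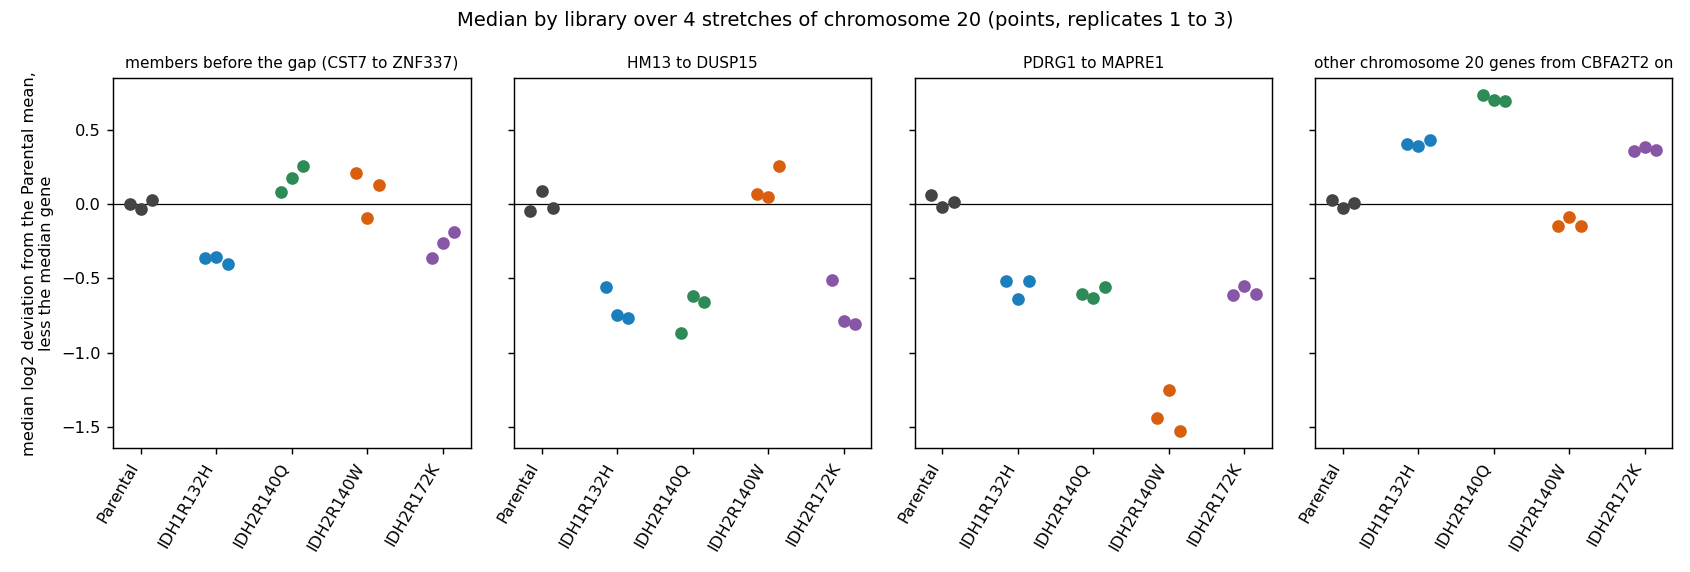
Median log2 deviation from the Parental mean, less the median gene (y axis), of each library (points, replicates 1 to 3) in the 5 groups (x axis), for the 7 short-arm members, HM13 to DUSP15, PDRG1 to MAPRE1 and the 210 other chromosome 20 genes from CBFA2T2 on. IDH2R140W lies above 0 over HM13 to DUSP15 and between -1.53 and -1.25 over PDRG1 to MAPRE1, and the genes from CBFA2T2 on lie above Parental in the other 3 lines.

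Beyond the block and its edge (next paragraph) the rest of chromosome 20 did not share lower values of that size. The 100 other protein-coding genes before CST7 had medians of 0.44, 0.24, -0.049 and 0.018 in IDH1R132H, IDH2R140Q, IDH2R140W and IDH2R172K. The 210 genes from CBFA2T2 on had medians of 0.41, 0.71, -0.12 and 0.36. In IDH1R132H, IDH2R140Q and IDH2R172K the long-arm members were thus low against a far long arm that was high. In IDH2R140W the genes from CBFA2T2 on lay slightly below the median gene, 68.6% of them under it. Their median there was under the lowest of the other 22 chromosomes (-0.071).

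The low stretch ran past the last member. CDK5RAP1, the next measured gene after MAPRE1, had differences less the median gene of -0.86, -0.89, -1.57 and -1.03 in the 4 lines in the same order. CBFA2T2, further along the long arm, had 0.37, 0.93, -0.45 and 0.47, above the median gene in all but IDH2R140W. NECAB3 and ACTL10 followed, at -0.65 and 0.32 in IDH2R140W and between -0.38 and 1.03 in the other lines. Before CST7, the 5 nearest measured genes (CD93, NXT1, GZF1, NAPB and CST3) lay between -0.22 and 0.46 in IDH2R140W. These edge values are a description, and the division at CBFA2T2 was chosen after they were seen.

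Of the measured genes inside the block that are not members, BCL2L1, DNMT3B and C20orf203 were like some of their neighbours and unlike others. ID1 is given under other observations. BCL2L1, an inhibitor of apoptosis between HM13 and TPX2, had a mean of 315 TPM in Parental. Its differences, in the same order, were -0.37, -0.69, 0.24 and -0.19, the pattern of HM13 with IDH2R140W alone above 0. TPX2 on its other side was at -1.30, -1.15, -0.53 and -1.02. DNMT3B, a de novo DNA methyltransferase between COMMD7 and MAPRE1, had mean levels of 64.2 TPM in Parental and 20.7 TPM in IDH2R140W, with differences of -0.14, -0.63, -1.62 and -0.77. C20orf203, between C20orf112 and COMMD7, had -0.68, -0.78, -1.71 and -0.23. COMMD7, which adjoins both C20orf203 and DNMT3B, was unlike them at 0.2, 0.015, -0.44 and -0.079.

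**Figure D4:**
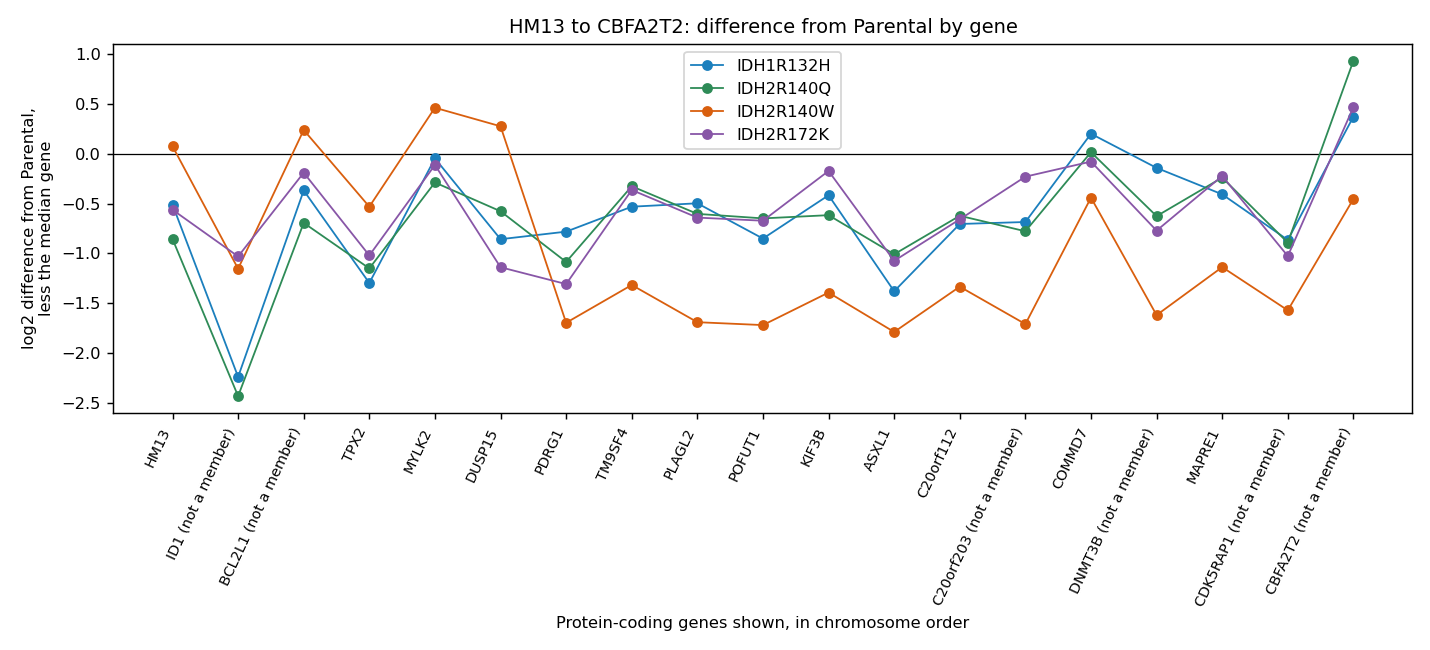
Log2 difference from Parental less the median gene (y axis) of protein-coding genes from HM13 to CBFA2T2 in chromosome order (x axis), with 1 coloured line per edited line; genes that are no members are marked. In IDH2R140W the values drop between DUSP15 (0.28) and PDRG1 (-1.70) and stay at -0.44 or below to CBFA2T2 in the genes shown, while CBFA2T2 lies above 0 in the other lines.

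The size of the differences of some members moved when 2 libraries were left out. Of the members of at least 10 TPM, all but PDRG1, ASXL1 and COMMD7 were lowest among the Parental libraries in replicate 2. That library had the highest ribosomal share of its group. As a fraction, the gap was widest for TM9SF4, PLAGL2, POFUT1 and KIF3B. IDH2R140W replicate 3, also with the highest ribosomal share of its group, was lowest there for all but ABHD12, HM13, PDRG1 and COMMD7. Without both libraries the differences from Parental less the median gene, in the order IDH1R132H, IDH2R140Q, IDH2R140W and IDH2R172K, were -0.64, -0.43, -1.32 and -0.47 for TM9SF4, against -0.53, -0.33, -1.32 and -0.36 with them. PLAGL2 gave -0.68, -0.78, -1.80 and -0.82, against -0.50, -0.60, -1.69 and -0.64. POFUT1 gave -1.04, -0.83, -1.79 and -0.86, against -0.85, -0.65, -1.72 and -0.67. All 12 of these values were as far from 0 or farther without the 2 libraries. KIF3B in IDH2R172K moved from -0.17 to -0.30. DUSP15 moved the other way, from -0.86 to -0.56 in IDH1R132H and from -0.58 to -0.27 in IDH2R140Q, and ASXL1 in IDH2R140W from -1.79 to -1.60.

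IDH1R132H and IDH2R140Q differed from each other over the 7 measured short-arm members, but not in the same direction over the rest of the short arm. Less the median gene, the 100 other genes before CST7 had a median of 0.12 in IDH1R132H against IDH2R140Q. The 210 genes from CBFA2T2 on, on the long arm, had -0.26. All 7 short-arm members were lower in IDH1R132H than in IDH2R140Q without overlap, from 0.817 (ABHD12) to 0.245 (CST7) of the IDH2R140Q mean, with GINS1 at 0.450 and ZNF337 at 0.439. In all, 12 of 20 members were lower (background 29.5%) and 4 were higher (background 22.8%), the latter HM13, PDRG1, KIF3B and COMMD7. Both lines chose the members, so this is a description with no test.

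In the tested comparison, IDH2R140W was lower than IDH2R172K in all 9 measured members from PDRG1 to MAPRE1, a stretch chosen after the values were seen, while the 11 before PDRG1 had no common direction. By limma with Benjamini-Hochberg adjustment over 14881 genes, 14 of 20 members passed an adjusted p of 0.05, where 31.2% of all genes did. The 9 members that were lower in IDH2R140W (background 19.2%) were the 9 measured from PDRG1 to MAPRE1, and the 5 that were higher (background 12.0%) were CST7, APMAP, HM13, TPX2 and DUSP15. With at least a 2-fold difference as well, 7 of 20 passed (background 6.86%), 5 lower (background 4.42%) and 2 higher (background 2.44%). Over all genes 1789 were higher and 2858 lower, 38.5% higher, a share that became 50.3% with median-ratio scaling and 52.5% with quantile normalization, while the members' split of 5 higher and 9 lower became 7 and 9 under both, with ABHD12 and MYLK2 added.

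Among the lower members, KIF3B fell by 1.32 on the log2 scale (SE 0.15, adjusted p = 1.09e-05), from 20.9 to 7.88 TPM. PLAGL2 and POFUT1 differed by nearly the same amount, -1.15 (SE 0.16) and -1.14 (SE 0.18), with adjusted p of 8.79e-05 and 0.000315 in limma. TM9SF4 differed by -1.05 (SE 0.14) (adjusted p = 6.89e-05) and MAPRE1 by -1.01 (SE 0.066) (adjusted p = 5.89e-08). Smaller falls were those of ASXL1, -0.81 (SE 0.14) (adjusted p = 0.000623), and C20orf112, -0.77 (SE 0.11) (adjusted p = 0.000138). PDRG1 and COMMD7 fell the least, -0.49 (SE 0.075) and -0.46 (SE 0.051), with adjusted p of 0.000214 and 1.12e-05. For each of the 9, and for GINS1, all 3 IDH2R140W libraries lay below all 3 IDH2R172K libraries (10 of 20, background 27.9%), and 7 members lay above without overlap (background 16.2%). Without IDH2R140W replicate 3, TM9SF4 (-0.89), POFUT1 (-0.97) and MAPRE1 (-0.96) no longer reached 2-fold, which left 4 of the 7 members, but each still passed the adjusted p.

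Of the higher members, CST7 rose by 2.27 on the log2 scale (SE 0.18, adjusted p = 3.25e-07), a 5.91-fold difference in mean TPM. DUSP15, at a low level, rose by 1.32 (SE 0.29) (adjusted p = 0.00334), HM13 by 0.54 (SE 0.053) (adjusted p = 3.85e-06), APMAP by 0.45 (SE 0.10) (adjusted p = 0.00368) and TPX2 by 0.39 (SE 0.082) (adjusted p = 0.00232). The 6 members that did not pass were PYGB (-0.0040, adjusted p = 0.979), ABHD12 (0.17, 0.123), GINS1 (-0.26, 0.0643), NANP (-0.089, 0.664), ZNF337 (-0.19, 0.463) and MYLK2 (0.48, 0.0623), of which 5 lie on the short arm. An exact test of 3 libraries against 3 cannot go below p = 0.10, so each adjusted p draws on the pooled spread of the limma fit. The median gene differed by -0.095 in this comparison, and the genes from CBFA2T2 on by a median of -0.47 less the median gene, against -0.92 over PDRG1 to MAPRE1 and 0.60 over HM13 to DUSP15.

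**Figure D5:**
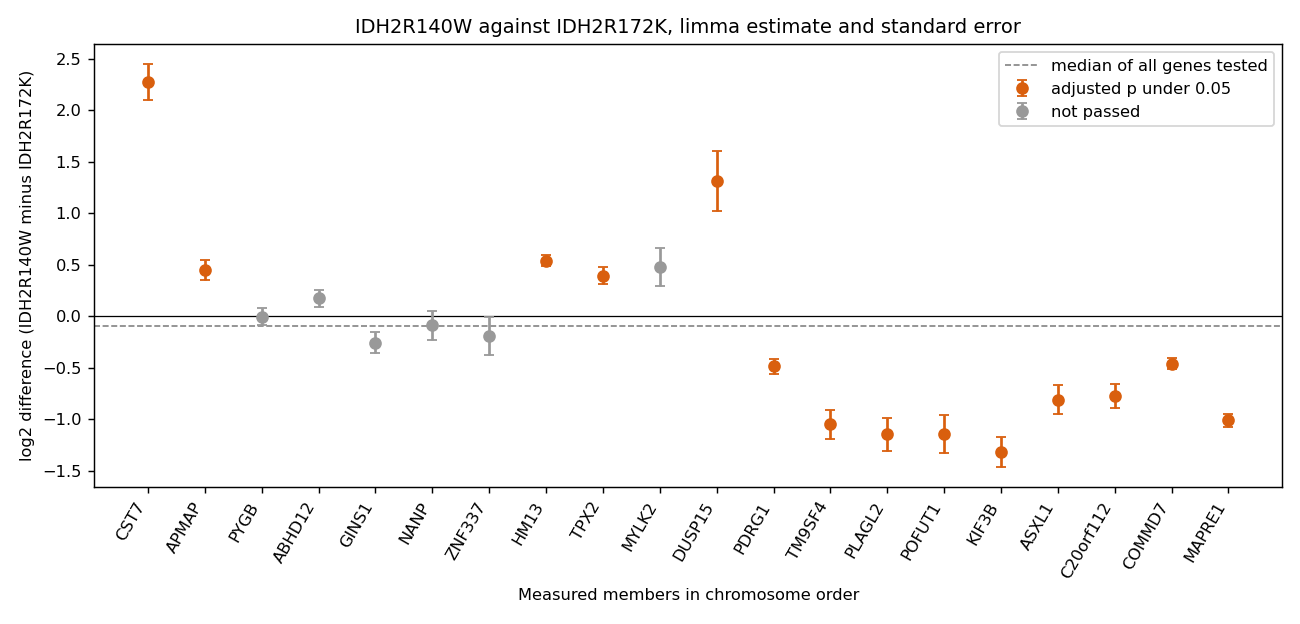
Limma estimate of the log2(TPM + 1) difference, IDH2R140W minus IDH2R172K (y axis; points, estimate; bars, standard error), for the 20 measured members in chromosome order (x axis); orange marks an adjusted p under 0.05 and the dashed line the median gene at -0.095. Values are above 0 from HM13 (0.54) to DUSP15 (1.32) and below 0 from PDRG1 (-0.49) to MAPRE1 (-1.01).

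Partners of the members elsewhere in the genome (paralogues, complex and pathway partners, 80 listed and 73 measured) were tested against Parental with limma, with an adjusted p under 0.05 and at least 2-fold. In IDH1R132H 4 of 73 passed (5.48%, background 10.8%): CLASP1, NOTCH1 and CCDC93 rose and MAPRE3 fell. In IDH2R140Q 5 of 73 passed (6.85%, background 10.0%): MAPRE2, CLASP1, KIF3C and CCDC93 rose and MAPRE3 fell. In IDH2R172K NOTCH1 rose and MAPRE3, PYGL and CTSL fell, 4 of 73 (5.48%, background 9.31%). Each share was below that of all genes. In IDH2R140W MAPRE3 (-0.86 (SE 0.21), adjusted p = 0.00791) and CTSL (-0.90 (SE 0.077), adjusted p = 1.51e-06) passed the adjusted p in limma without reaching 2-fold.

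MAPRE3, the EB family paralogue of MAPRE1, fell from 11.9 TPM in Parental to 3.27 in IDH1R132H (-1.59 (SE 0.21), adjusted p = 3.11e-05 in limma), 4.33 in IDH2R140Q (-1.26 (SE 0.21), adjusted p = 0.000259) and 1.99 in IDH2R172K (-2.11 (SE 0.21), adjusted p = 2.64e-06). MAPRE2, the other paralogue, rose from 23.4 to 51.5 TPM in IDH2R140Q (1.17 (SE 0.24), adjusted p = 0.00148). KIF3C, a kinesin-2 paralogue of KIF3B, rose from 11.4 to 29.9 TPM in IDH2R140Q (1.33 (SE 0.17), adjusted p = 2.47e-05). PYGL, the liver form of the enzyme that PYGB encodes, fell from 61.9 to 16.1 TPM in IDH2R172K (-1.87 (SE 0.078), adjusted p = 7.25e-10), where PYGB was 1.30-fold Parental. NOTCH1, a receptor that POFUT1 modifies, rose from 8.45 to 19.8 TPM in IDH1R132H (1.20 (SE 0.23), adjusted p = 0.000744). Without Parental replicate 2 the calls were 2 in IDH1R132H, MAPRE3 and CTSL, and 3 in IDH2R140Q, MAPRE3, KIF3C and CCDC93. With quantile normalization those in IDH1R132H were MAPRE3, CTSL and CTSH.

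Between IDH2R140W and IDH2R172K 2 of 73 partners passed (2.74%, background 6.86%), both higher in IDH2R140W. They were MAPRE3 (1.25 (SE 0.21), adjusted p = 0.000382 in limma) and PYGL (1.54 (SE 0.078), adjusted p = 5.17e-09), while their member paralogues were lower there (MAPRE1) or did not pass (PYGB).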

How the data were processed

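Poly(A) RNA of 15 TF-1 libraries in 5 groups of 3 was sequenced with a directional kit, per the labels' protocols. The authors deposited 1 table of TPM values (abundance per transcript length, scaled to a total of about 1000000 a library). STAR 2.7.3, HTSeq, RSEM, DESeq2 and hg38 are listed in the submitters' processing notes, without a role; annotation release, strand setting and filters were not stated in the sources used here. TPM keeps no depth, so the precision that depth gives is unknown.

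Of 63568 rows, 6 with symbols turned into dates were left out, and rows of 1 symbol were summed (2985 of 56624 symbols). Kept were 14881 genes that reached 1 TPM in 3 or more libraries, and 87.9% of them matched GENCODE release 29, with C20orf112 matched through its newer name. Values were taken as log2(TPM + 1) and modelled by limma 3.58.1 (R 4.3.3), with 1 mean per group over all 15 libraries, an intensity trend and Benjamini-Hochberg adjustment over all genes kept. The script was tested on simulated data. Figures and tables were made with Python 3.11.15, pandas 2.3.3 and matplotlib 3.10.9. No 2 libraries were identical.

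Members and lists, the partner list included, were chosen with earlier results of these data known. The rule for named genes was: members with a mean of at least 10 TPM by library, those at lower levels by group mean, those under the filter by range, the 5 nearest measured protein-coding genes on each side and all unnamed ones between, and at most 4 called partners per comparison with the smallest adjusted p; other partners are named to complete counts. A few genes that the rule or the marker list covers are not reported here. Alternatives were a pseudocount of 0.1, minimums of 5 TPM or any value above 0, median-ratio scaling, quantile normalization, no intensity trend, only the compared groups, a block on replicate number, and dropping libraries.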

Additional observations from a re-analysis of the deposited data

Results flagged for a closer look

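The difference from Parental differed between IDH2R140W and IDH2R172K for 7 members by at least 2-fold, by the limma test of the difference itself (adjusted p in the report), with 3 libraries of each line on either side and no overlap. IDH2R140W was lower for TM9SF4 (-1.05), PLAGL2 (-1.15), POFUT1 (-1.14), KIF3B (-1.32) and MAPRE1 (-1.01), all on the log2(TPM + 1) scale and all on the long arm. They are not an unbroken run: ASXL1 (-0.81), C20orf112 (-0.77) and COMMD7 (-0.46), which did not reach 2-fold, lie between KIF3B and MAPRE1. It was higher for CST7 (2.27), the first member on the short arm, and DUSP15 (1.32), which was under 7 TPM in every library.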

How the results depend on the processing

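Medians over the 20 members, less the median gene, kept their sign under every alternative run. With any value above 0 as the filter they were -0.43 in IDH1R132H, -0.19 in IDH2R140Q and -0.28 in IDH2R172K against Parental, and -0.19 in IDH2R140W against IDH2R172K, which became -0.35 with a minimum of 5 TPM, where 17 members remain. A pseudocount of 0.1 gave -0.39 in IDH2R140Q, quantile normalization -0.42 in IDH2R140W, and dropping both Parental replicate 2 and IDH2R140W replicate 3 gave -0.42 in IDH2R172K. Leaving out each library in turn gave -0.57 to -0.46 in IDH1R132H, -0.34 to -0.26 in IDH2R140Q, -0.51 to -0.44 in IDH2R140W, -0.41 to -0.32 in IDH2R172K and -0.19 to -0.076 between IDH2R140W and IDH2R172K. The members with at least 2-fold between those lines were 4 without that pair of libraries and 4 to 7 without 1 library. Partner genes called in IDH1R132H were 2 without the pair and 2 to 6 without 1 library. Those in IDH2R140Q were 3 under median-ratio scaling, quantile normalization and without the pair, and 3 to 8 without 1 library (8 without Parental replicate 1). Single members between IDH2R140W and IDH2R172K kept their direction and side of the threshold in 282 of their values under alternatives, passed it newly in 8 and changed sign in 7. The 7 were PYGB, at 0.098, 0.12 and 0.048 (median-ratio scaling, quantile normalization and without IDH2R140W replicate 3, alone or with Parental replicate 2), and NANP, at 0.002, 0.035 and 0.0076 (the 2 scalings and without IDH2R172K replicate 2), neither of which passed; leaving out each library in turn gave -0.044 to 0.048 for PYGB and -0.18 to 0.0076 for NANP. The cause of these changes was not tested. With the replicate block 14 members were called, and 4 and 5 partners. Whether replicate numbers pair the samples is not known, and correlations cannot settle it. Same-numbered libraries of different groups had correlations of their deviations of -0.285 to 0.223, over 0.1 in 1 of 30 pairs. Those with different numbers had -0.37 to 0.499, and 7 of 15 libraries matched their own number best. TPM hides depth, so low members (MYLK2, DUSP15) carry an unknown counting error.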

Other observations

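Inside and beside the block some unnamed genes had values unlike those of the members. ID1, which blocks DNA binding by helix-loop-helix factors and lies between HM13 and TPX2, was at 477 TPM in Parental, 111.8 in IDH1R132H, 102 in IDH2R140Q, 254 in IDH2R172K and 218 in IDH2R140W. CD93, a receptor before CST7, was at 14.1 TPM in IDH2R172K and between 0.55 and 1.76 TPM in the other groups. These are group means with no test.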
